A study of Aspergillus luchuensis with 6 samples.

Results

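Start sites on the BACL contigs, short sequences of the Aspergillus luchuensis mut. kawachii genome assembly that stand in the deposited table beside its long DF scaffolds, were taken from a CAGE experiment. CAGE (cap analysis of gene expression) reads short tags at the capped beginnings of RNA molecules, so that tag positions map where transcription starts and tag numbers how often. A start position counted when it held at least 0.1 CPM (tags in 1000000) of the tags pooled over the libraries. Such positions were joined into a cluster when at most 20 bp apart on a contig and strand, and clusters of at least 1 CPM pooled were kept. This gave 76 clusters on 42 BACL contigs, of 21824 clusters in all, 21685 of them on DF scaffolds. The weakest cluster kept held 1.01 CPM and the strongest left out 0.971 CPM.

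The libraries were 3 of a laeA disruptant (genotype ΔlaeA, strain label sirD) and 3 of a control strain (strain label ctrl345). All were made from whole mycelia, grown with shaking at 30 °C for 36 h in M medium and then for 12 h in CAP medium. The meaning of sirD, the parents of the strains, and whether the libraries of a strain came from separate cultures are not given in the labels. The effect of laeA and any other difference between the strains cannot be told apart, and p-values measure only the spread between these libraries.

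LaeA is a nuclear protein with a methyltransferase-like domain that acts in Aspergillus species as a global regulator of secondary metabolism and development. In fungi, promoters of protein-coding genes commonly start transcription from several nearby bases, so that a start site in CAGE data is a group of positions rather than a single one. A draft genome is put together from scaffolds, in which contigs are ordered and joined, and from contigs that found no such place. The table gives no gene name for any position, so no cluster is named by gene, its transcript is not identified, and laeA tags were not looked up. Whether the targeted gene follows the strain labels was therefore not checked.

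The ΔlaeA libraries held 17339102, 14838220 and 15318243 tags and the control libraries 19174181, 19316457 and 18040145 tags. No library pair of a strain agreed within counting noise (chi-square per degree of freedom 32.6 to 94.7 across clusters), so none was counted as a copy. Tags carry no molecular identifiers, so limits from counts cover counting error only.

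BACL sequences were numerous, short and mostly without tags. The table lists 554 BACL contigs, whose last listed position had a median of 561 and a maximum of 14341, against a median of 48167 and a maximum of 2077004 over 145 DF scaffolds. The sequences were thus short by their listed positions. Their full lengths and their lack of a place in the assembly could not be checked from the table. Of the 554 contigs, 361 held no tag in any library, which allows up to 0.0288 CPM pooled over all libraries (3 tags of 104026348). Another 193 held at least 1 tag, and 53 held at least 100 tags.

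Despite their short listed extent these contigs took 7003845 tags, 6.73% of all tags. The summed last listed positions of BACL contigs came to 1.71% of those of BACL and DF sequences together. The share was 5.28%, 5.88% and 7.35% of the library in ΔlaeA replicates 1, 2 and 3, against 7.46%, 5.68% and 8.66% in control replicates 1, 2 and 3. Replicate 3 was the highest of its strain in both cases, and the strains overlapped. The share averaged 6.17% ± 1.07 in ΔlaeA libraries and 7.27% ± 1.5 in control libraries (SD, n = 3 each). The difference of -1.09 percentage points was within the spread between libraries (exact permutation test, two-sided p = 0.4, where 3 against 3 libraries cannot go below 0.1).

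**Figure D1:**
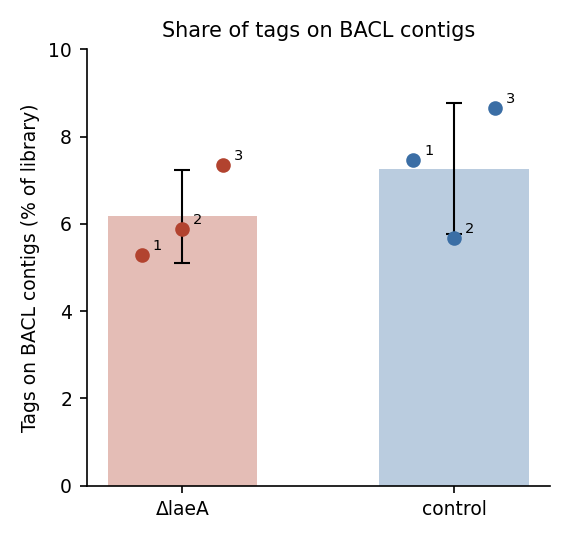
Percentage of each library's tags that fell on BACL contigs, for 3 ΔlaeA and 3 control libraries. Points are libraries marked with their replicate number, bars are means and whiskers SD; ΔlaeA libraries span 5.28% to 7.35% and control libraries 5.68% to 8.66%, so the strains overlap.

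Nearly all of this signal came from a handful of contigs. BACL01001188.1 held 29.7% of the BACL tags, BACL01001136.1 29.0%, BACL01001574.1 10.4%, BACL01001099.1 10.1% and BACL01001245.1 9.41%. With BACL01001369.1 at 5.53%, these 6 contigs carried 94.2% of the BACL tags, and their last listed positions lay between 134 and 698. All 6 were read from the minus strand: of their 6596753 tags, 16 were on the plus strand. The 6 contigs made up 89.7%, 92.2% and 94.6% of the BACL tags in ΔlaeA replicates 1, 2 and 3, against 95.1%, 94.7% and 96.4% in control replicates 1, 2 and 3. Every ΔlaeA value lay below every control value, narrowly between ΔlaeA replicate 3 and control replicate 2. The 6 contigs were picked by their tags in these libraries, and this difference was not tested.

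The strongest cluster lay on BACL01001136.1, minus strand, positions 31 to 622. It was the second strongest of all 21824 clusters. Its level was 14152, 16071 and 21179 CPM in ΔlaeA replicates 1, 2 and 3, against 22952, 16937 and 26538 CPM in control replicates 1, 2 and 3. The ΔlaeA and control libraries overlapped (17134 ± 3632 CPM in ΔlaeA, 22142 ± 4852 CPM in control, SD, n = 3 each; log2 fold change -0.37, SE 0.28; edgeR quasi-likelihood test, adjusted p = 0.461). Here and below a CPM level in a library is relative to its effective size, the library total times a TMM factor.

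This cluster was broad rather than focused. It ran from position 31, the lowest minus-strand position found anywhere in the table, to 622, the last position listed for its contig. Its span and width are thus limited by the listed contig, and no promoter shape is read from them. Of its 592 positions, 99.8% held at least 1 tag. Its fullest position, 220, was the same in every library and held 9.64%, 9.90% and 10.7% of the cluster's tags in ΔlaeA replicates 1, 2 and 3, against 9.42%, 12.8% and 9.05% in control replicates 1, 2 and 3. The middle of the tags, from the 10th to the 90th percentile, spanned 525 to 529 bp in ΔlaeA libraries and 529 to 537 bp in control libraries.

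BACL01001188.1 carried a pair of clusters on its minus strand. Positions 31 to 230 formed the third strongest cluster of the table, at 15144 ± 5184 CPM in ΔlaeA and 19333 ± 4878 CPM in control libraries (SD, n = 3 each), with a fullest position of 82 in every library. The share of that position varied widely between libraries, at 8.05%, 14.4% and 23.5% in ΔlaeA replicates 1, 2 and 3, against 11.4%, 16% and 14.8% in control replicates 1, 2 and 3. Positions 326 to 535 held less, and their control libraries were uneven: 1257, 2720 and 3068 CPM in ΔlaeA replicates 1, 2 and 3, against 2526, 2008 and 6558 CPM in control replicates 1, 2 and 3. Control replicate 3 stood well above the other five libraries there, and the fullest position of this cluster took 4 different values across the libraries.

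The next clusters differed in width. On BACL01001574.1, minus strand, positions 68 to 134, the last listed position of the contig was also the fullest and held 38.3% to 40.4% of the tags in ΔlaeA libraries and 38.5% to 40.5% in control libraries. BACL01001245.1, minus strand, positions 400 to 466, had its fullest position at 402, with 25.6% to 34.6% of the tags in ΔlaeA and 27.2% to 31.7% in control libraries. BACL01001099.1, minus strand, positions 67 to 698, was the longest BACL cluster at 632 bp and also reached the last position listed for its contig. Its 10 to 90% width varied more than that of the other broad cluster, from 237 to 329 bp in ΔlaeA and from 317 to 422 bp in control libraries.

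The most focused of the strong clusters was a single base. On BACL01001369.1, minus strand, position 313, the last one listed for that contig, held 47270, 49889 and 65858 tags in ΔlaeA replicates 1, 2 and 3, against 80816, 54624 and 88617 tags in control replicates 1, 2 and 3. Relative to library size, the level was 3428 ± 1042 CPM in ΔlaeA and 4116 ± 1270 CPM in control libraries (SD, n = 3 each), and the strains overlapped. The pooled level of 3721 CPM compares with 103 CPM for the strongest cluster of 1 base on a DF scaffold.

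Among the 10 strongest BACL clusters, only BACL01001586.1 was read from the plus strand. Its cluster at positions 1 to 95 had its fullest position at 85 in every library, and its level was 1468 ± 205 CPM in ΔlaeA and 1275 ± 265 CPM in control libraries (SD, n = 3 each). On BACL01000997.1, minus strand, positions 739 to 945 stood at 1902, 1474 and 1210 CPM in ΔlaeA replicates 1, 2 and 3, against 1154, 1034 and 831 CPM in control replicates 1, 2 and 3. Every ΔlaeA library lay above every control library, but the difference did not pass the test (log2 fold change 0.60, SE 0.24; edgeR adjusted p = 0.164).

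**Figure D2:**
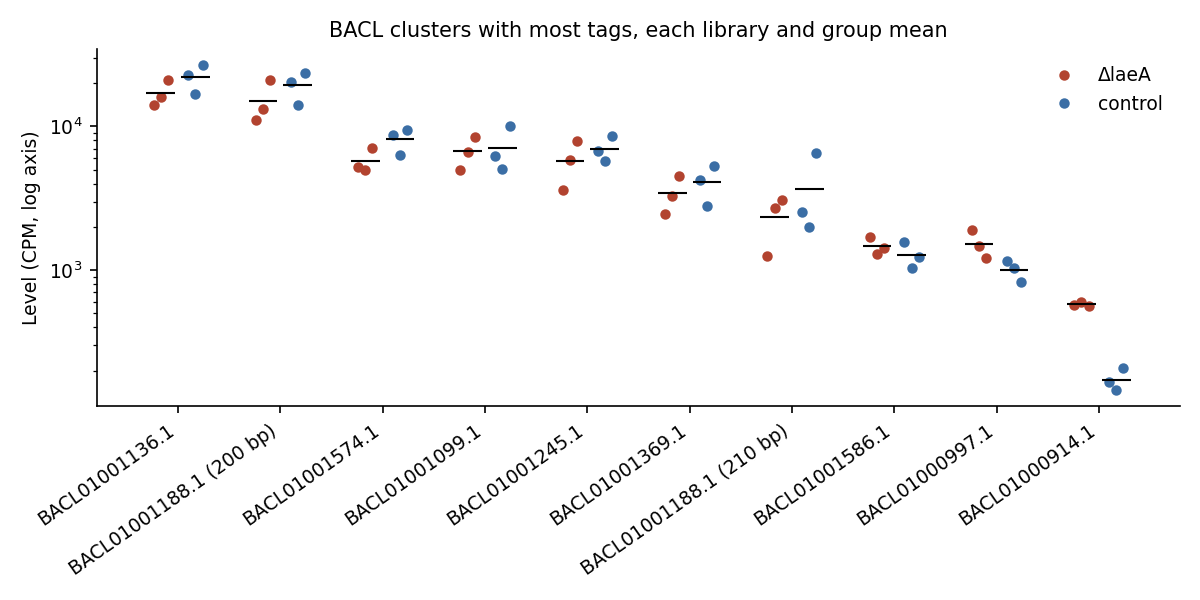
Level in CPM (log axis) of the 10 BACL clusters with most tags, named by contig, with the span in bp where a contig has 2 of them. Points are libraries, with ΔlaeA left of control, and lines are group means; the 9 strongest have log2 fold changes between -0.65 and 0.60, and BACL01000914.1 is the one whose strains lie far apart.

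Most BACL clusters were far weaker than these. Of the 76, 9 reached 1000 CPM pooled (11.8%, against 0.401% of DF clusters), 10 reached 100 CPM, 21 lay between 10 and 100 CPM and 45 below 10 CPM. Of the 10 strongest clusters of the whole table, 4 were on BACL contigs, and of the 100 strongest, 9. BACL clusters made up 0.348% of all clusters and 7.13% of the tags in clusters.

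The typical level was compared with DF scaffolds within each library. The median BACL cluster stood at 4.69, 6.85 and 6.51 CPM in ΔlaeA replicates 1, 2 and 3 and at 5.53, 4.33 and 5.39 CPM in control replicates 1, 2 and 3. The median DF cluster stood at 4.17, 4.15 and 4.13 CPM in those ΔlaeA libraries and at 4.27, 4.48 and 3.95 CPM in those control libraries. The BACL median was the higher one in 5 of 6 libraries, all but control replicate 2. The log2 ratio of BACL over DF averaged 0.39 ± 0.29 (SD, n = 6), which did not pass an exact sign-flip permutation test over libraries (two-sided p = 0.0625, smallest possible 0.03125). The ratio was larger and passed at p = 0.03125 in the same exact test with the mean of log2(CPM + 1), at 0.98, with clusters joined at up to 50 bp, at 0.60, and with positions of at least 0.5 CPM, at 0.50. Without the 16 BACL clusters and 5 DF clusters at sequence ends described below, an alternative chosen after seeing the data, the mean log2 ratio turned to -0.20 (p = 0.25, same exact test). This test covers the spread between libraries only, since the regions are the same in each.

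By median width over clusters with at least 10 tags, BACL clusters were somewhat narrower than DF clusters at their core. The median 10 to 90% width, over clusters with at least 10 tags in the library, was 22, 22 and 24 bp for BACL in ΔlaeA replicates 1, 2 and 3 and 22, 26 and 22 bp in control replicates 1, 2 and 3. For DF clusters it was 27, 28 and 27 bp in the ΔlaeA libraries and 27 bp in each control library. The BACL width was below the DF width in every library, by 4.17 bp ± 1.83 on average (SD, n = 6; exact sign-flip permutation test, two-sided p = 0.03125, the smallest it can give). Over clusters with at least 30 tags in the library the mean difference was -3.17 bp ± 3.59 (SD, n = 6) and did not pass (p = 0.156, same exact test). There the BACL width was above the DF width in 2 of 6 libraries. With positions of at least 0.5 CPM it was -2 bp, and for the 25 to 75% width it was -1.33 bp, both lower in every library. The interquartile ranges of the width overlapped widely, 12 to 43.2 bp for BACL and 15 to 44 bp for DF in ΔlaeA replicate 1.

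Pooled over libraries, the span of a BACL cluster had a median of 38 bp, against 40 bp on DF scaffolds. Only 4 BACL clusters spanned over 200 bp and 3 were a single base (3.95%, against 3.41% of DF clusters). In 15 of 76 (19.7%) a single position held over 50% of the tags, against 16% of DF clusters. The fullest position was the same in all 6 libraries in 38 of the 76 clusters.

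**Figure D3:**
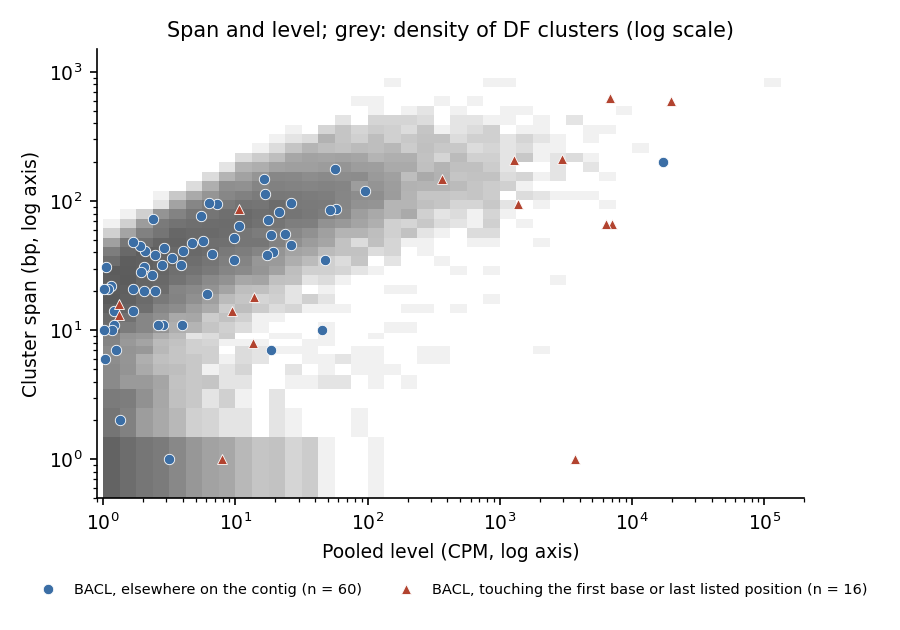
Span in bp against pooled level in CPM, both on log axes, for the 76 BACL clusters over the density of the 21685 DF clusters in grey. Triangles are the 16 clusters that touch the first base of their contig on the plus strand or its last listed position on the minus strand; 8 of the 9 BACL clusters above 1000 CPM are among them.

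Many BACL clusters lay at an end of the positions listed for their contig. A plus-strand cluster was counted as touching an end when it began at position 1. A minus-strand cluster was counted when it reached the last position the table lists for its contig. That position is the highest listed on either strand and stands in for the length, which was not analysed here. A minus-strand cluster can therefore set its own end, as it may on BACL01001369.1, listed from position 239 to 313. The part of this in the counts was not tested. By these rules 16 of 76 BACL clusters (21.1%) touched an end, 7 on the plus strand and 9 on the minus strand. On DF scaffolds 5 of 21685 clusters (0.0231%) did. These 16 held 73.5% of the tags in BACL clusters, against 0.698% for the 5 on DF scaffolds. They included 9 of the 10 strongest BACL clusters and 7 of the other 66. The share per cluster also depends on how many clusters a sequence holds, on average 1.81 on a BACL contig and 185 on a DF scaffold with any. Counted by sequence ends, with a plus-strand start and a minus-strand end for each sequence that holds a cluster, clusters lay at 16 of 84 BACL ends (19.0%), against 5 of 234 DF ends (2.14%), a description with no test.

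In 8 of the 16 the end position itself was the fullest. On the plus strand these were 5 clusters that peaked at position 1. In that of BACL01001044.1, positions 1 to 8, it held 98.2% of the tags, in that of BACL01000997.1, positions 1 to 14, 91.0%, and in that of BACL01001444.1, positions 1 to 18, 86.2%. On the minus strand they were the clusters of BACL01001574.1 and BACL01001369.1 described above and a single base at position 409 of BACL01001283.1. The cluster of BACL01001188.1 at positions 31 to 230, not counted among the 16, reached down to the lowest minus-strand position found anywhere in the table, 31. On the minus strand that is the downstream edge of the cluster, not an end as counted above. Positions here count from 1, and minus-strand positions may follow another convention in the table than plus-strand ones.

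Strand use on BACL contigs was one-sided by tags but not by clusters. The minus strand took 95.8%, 97.0% and 97.7% of BACL tags in ΔlaeA replicates 1, 2 and 3, against 97.5%, 97.6% and 98.3% in control replicates 1, 2 and 3. On DF scaffolds it took 42.8% to 48.5% in ΔlaeA and 42.1% to 47.3% in control libraries. By number, 44 BACL clusters were on the minus strand and 32 on the plus strand. The 62 clusters outside the 8 contigs with most tags split into 34 on the minus and 28 on the plus strand. The 128428 tags outside those 8 contigs were 75.1% on the minus strand. Since the direction in which an unplaced contig is written is arbitrary, these shares give no direction in the genome.

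Within a contig a single strand usually prevailed. Of the 53 contigs with at least 100 tags, 37 had at least 95% of their tags on the same strand, 25 on the minus and 12 on the plus strand, and 10 had under 80%. Of the 23 shortest DF scaffolds, those with at least 100 tags and a last listed position under 15000, 5 had at least 95% on the same strand. The BACL contigs were mostly shorter still, and the part of length in this was not tested. Only 8 of the 42 contigs with clusters had clusters on both strands, among them BACL01001235.1, whose plus-strand cluster at positions 320 to 374 held 18.6 CPM pooled and whose minus-strand cluster at positions 62 to 210 held 16.6 CPM.

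Strand balance was therefore also measured locally, as the share of opposite-strand tags within 500 bp of a cluster's fullest position. Its median over BACL clusters was 0.435%, 0.741% and 0.407% in ΔlaeA replicates 1, 2 and 3 and 0.717%, 1.67% and 0.756% in control replicates 1, 2 and 3. Over DF clusters it was 2.41%, 2.81% and 2.41% in the ΔlaeA libraries and 2.22%, 1.96% and 2.09% in the control libraries. BACL clusters had the lower share in every library, by 1.53 percentage points ± 0.68 on average (SD, n = 6; exact sign-flip permutation test, two-sided p = 0.03125, the smallest it can give). The window ran past the listed positions for 69 of 76 BACL clusters, by a median of 435 bp over all 76, and for 46 of 21685 DF clusters; the part of this in the difference was not tested. The mean difference was -0.40 points in a 200 bp window and -4.16 points in a 1000 bp window. Without the clusters at sequence ends the mean difference was -0.56 points and did not pass (p = 0.0938, same exact test).

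The difference from DF clusters was wider in ΔlaeA libraries, at -1.97, -2.07 and -2.01 points in replicates 1, 2 and 3, against -1.5, -0.29 and -1.33 points in control replicates 1, 2 and 3. In this difference the strains did not overlap, at the smallest p that 3 against 3 libraries allow (exact permutation test, two-sided p = 0.1). Control replicate 2 lay far from the other controls. The BACL medians themselves overlapped, with ΔlaeA replicate 2 at 0.741% and control replicate 1 at 0.717%. The DF medians did not overlap and averaged 2.54% in ΔlaeA and 2.09% in control libraries, so part of the contrast lay in the DF clusters. An opposite-strand cluster peaked within 500 bp of 22 BACL clusters (28.9%), against 30.0% of DF clusters.

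**Figure D4:**
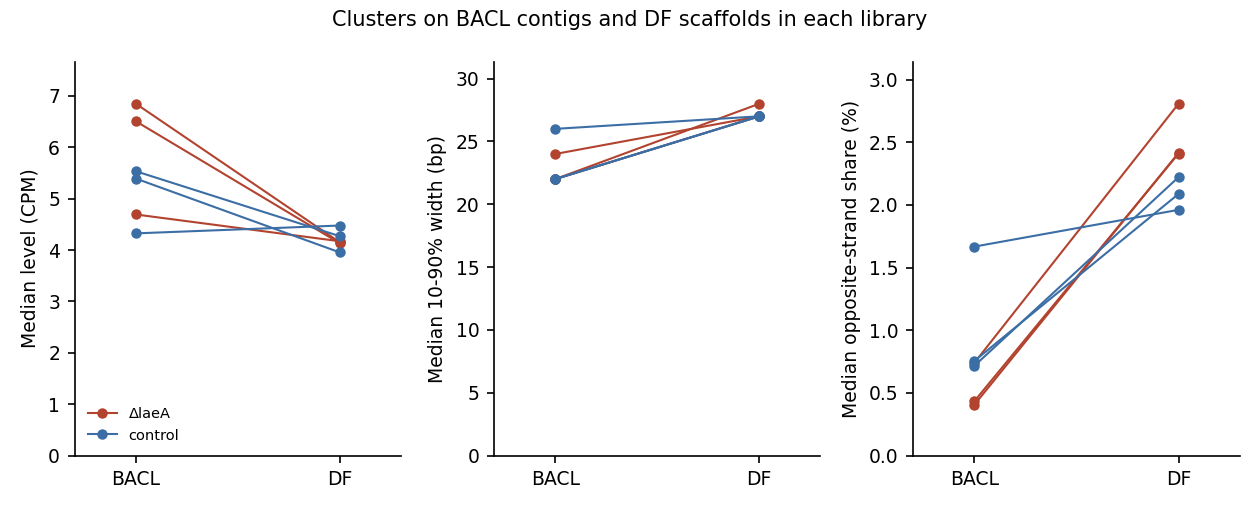
Median level in CPM, median 10 to 90% width in bp and median share of opposite-strand tags within 500 bp, for BACL clusters and DF clusters of the same library. Each line joins the values of a library; all 6 lines rise from BACL to DF for width and for opposite-strand share, and 5 of 6 fall for level.

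The comparison of strains asked which of these start sites differed in level between ΔlaeA and control libraries. All 76 clusters passed the low-count filter, with at least 6 tags in every library, and 6 of them differed between ΔlaeA and control (edgeR fit across all clusters, p adjusted by the Benjamini-Hochberg method and under 0.05), 4 higher and 2 lower. That is 7.89%, against a background of 8.11% of the 21803 clusters tested, 4.1% higher and 4.0% lower, so BACL clusters were called about as often as clusters at large. The libraries of the strains did not overlap in 22 of 76 clusters (28.9%, 17 higher and 5 lower), against 29.3% of all tested clusters, 16.3% higher and 13% lower. The median log2 fold change over the 76 was 0.21, and -0.01 over all tested clusters. Of the 76 estimates, 49 were above 0 (64.5%, against 49.5% of all tested clusters). Some of the 76 share a contig, up to 6 on the same one, and this share was not tested.

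Only the cluster on BACL01000914.1 was called under each alternative tried. It lay on the minus strand at positions 1087 to 1234, the end of the listed contig, with its fullest position at 1166 in every library. It held 10895, 9181 and 8225 tags in ΔlaeA replicates 1, 2 and 3, against 3152, 2882 and 3461 tags in control replicates 1, 2 and 3. The strains were well apart and the ΔlaeA libraries were close to each other, at 579.6 ± 21.6 CPM in ΔlaeA and 173 ± 31 CPM in control libraries (SD, n = 3 each), a 3.34-fold higher mean (log2 fold change 1.74, SE 0.20; edgeR adjusted p = 0.00144). Across 15 alternatives its log2 fold change ranged from 1.63 to 1.90 and its adjusted p from 8.69e-12 to 0.0125. Its fullest position held 17.4% to 20.1% of the tags in ΔlaeA and 20.1% to 21.5% in control libraries, and the 10 to 90% width was 59 bp in every ΔlaeA library, against 59, 55 and 34 bp in control replicates 1, 2 and 3. A weaker cluster on the same strand of this contig, positions 963 to 973, stood at 1.70 ± 0.34 CPM in ΔlaeA and 0.733 ± 0.164 CPM in control libraries (SD, n = 3 each) and did not pass (log2 fold change 1.21, edgeR adjusted p = 0.0713).

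The other 3 clusters called higher had lower levels than this one. On BACL01000893.1, minus strand, positions 1235 to 1265 held 40, 59 and 53 tags in ΔlaeA replicates 1, 2 and 3, against 14, 29 and 15 tags in control replicates 1, 2 and 3 (log2 fold change 1.61, SE 0.39; edgeR adjusted p = 0.0397). On BACL01000933.1, minus strand, positions 64 to 111 held 50, 42 and 28 tags in ΔlaeA replicates 1, 2 and 3, against 23, 17 and 14 tags in control replicates 1, 2 and 3 (log2 fold change 1.32, SE 0.33; edgeR adjusted p = 0.0422). On BACL01000888.1, minus strand, positions 497 to 536 stood at 25.4 ± 4.45 CPM in ΔlaeA and 13.8 ± 1.32 CPM in control libraries (SD, n = 3 each; log2 fold change 0.88, SE 0.21; edgeR adjusted p = 0.0354). In each of the 3 the lowest ΔlaeA library stood above the highest control library in CPM.

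The 5 other clusters of BACL01000888.1 did not pass the test. The strongest of them, minus strand, positions 57 to 234, had a log2 fold change of -0.50 (edgeR adjusted p = 0.302), and the one at positions 856 to 874 of the minus strand -0.84 (edgeR adjusted p = 0.125). Clusters of the same contig thus had estimates of opposite sign, a difference that was not tested.

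Both clusters called lower were on the plus strand. BACL01001044.1, positions 1 to 8, one of those that peak at the first base, stood at 9.53 ± 0.74 CPM in ΔlaeA and 17.3 ± 2.94 CPM in control libraries (SD, n = 3 each; log2 fold change -0.86, SE 0.21; edgeR adjusted p = 0.041). BACL01001304.1, positions 128 to 176, stood at 3.45 ± 1.04 CPM in ΔlaeA and 7.72 ± 0.43 CPM in control libraries (SD, n = 3 each; log2 fold change -1.16, SE 0.28; edgeR adjusted p = 0.0397). In both the highest ΔlaeA library stood below the lowest control library. With single libraries left out, fewer clusters were called, in BACL clusters and mostly also at large. The BACL calls were 4, 1 and 1 without ΔlaeA replicate 1, 2 or 3, beside 5.86%, 4.50% and 3.41% of all tested clusters. They were 1, 2 and 3 without control replicate 1, 2 or 3, beside 3.9%, 4.2% and 10.3% of all tested clusters. Over these 6 fits the called cluster of BACL01000914.1 was called in 6, and those of BACL01000893.1 and BACL01000888.1 in 2 each. Those of BACL01000933.1, BACL01001044.1 and BACL01001304.1 were called in 0. The estimates themselves kept their direction, for example 1.22 to 1.51 for BACL01000933.1 and -1.34 to -0.94 for BACL01001304.1 on the log2 scale.

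**Figure D5:**
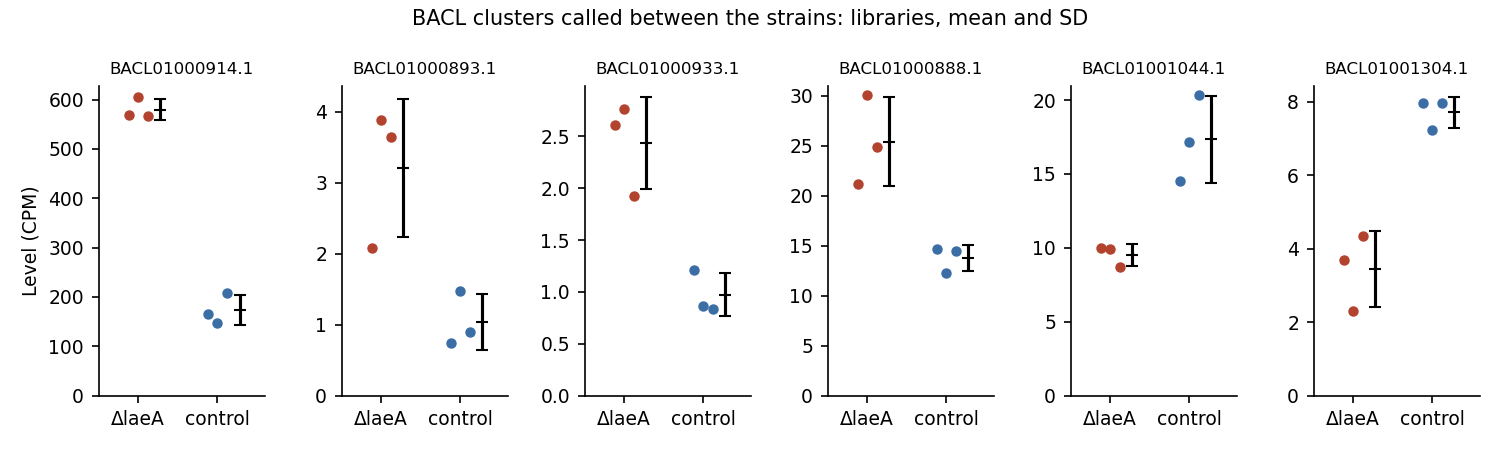
Level in CPM of the 6 BACL clusters that differed between the strains, named by contig, with a linear axis from 0 for each. Points are libraries, ΔlaeA left of control, with the mean and SD beside them; in each cluster the strains do not overlap, and BACL01000914.1 has the highest level, 579.6 CPM in ΔlaeA and 173 CPM in control libraries on average.

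The 9 strongest clusters moved less, with log2 fold changes from -0.65 to 0.60 and edgeR adjusted p from 0.164 to 0.898. In 8 of these 9 the strains overlapped. The estimate of -0.65, for BACL01001188.1 positions 326 to 535, was 0.05 without control replicate 3, and that of -0.09 for BACL01001099.1 was 0.26 without it and 0.09 without ΔlaeA replicate 1. The replicate spread of BACL clusters was close to that of the scaffolds: the coefficient of variation had a median of 26.5% in ΔlaeA and 25.7% in control libraries for BACL clusters, and of 23.9% in ΔlaeA and 23.6% in control libraries for DF clusters.

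A few clusters departed from that spread in a single library, and the next pair was picked for it after their values were seen. On BACL01001245.1, minus strand, positions 97 to 193 held 57, 2163 and 156 tags in ΔlaeA replicates 1, 2 and 3, against 102, 89 and 161 tags in control replicates 1, 2 and 3. ΔlaeA replicate 2 stood far above the other libraries, and the log2 fold change was the highest of the 76, 3.00 (SE 1.16; edgeR adjusted p = 0.156). On BACL01000861.1, minus strand, positions 1170 to 1225 held 527, 503 and 531 tags in ΔlaeA replicates 1, 2 and 3, against 400, 88 and 413 tags in control replicates 1, 2 and 3. Control replicate 2 was low there, and the difference did not pass (log2 fold change 0.95, SE 0.50; edgeR adjusted p = 0.283).

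Few BACL tags lay outside the clusters. They made up 0.308%, 0.318% and 0.209% of the BACL tags in ΔlaeA replicates 1, 2 and 3, against 0.202%, 0.252% and 0.183% in control replicates 1, 2 and 3, and the strains overlapped (exact permutation test, two-sided p = 0.2). On DF scaffolds the tags outside clusters came to 5.92% to 6.29% in ΔlaeA and 6.18% to 6.75% in control libraries. The 8 contigs with most tags held 98.2% of the BACL tags, so the BACL shares describe mainly those contigs. For the 128428 tags on the other BACL contigs the share outside clusters was not worked out, and it may be higher.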

How the data were processed

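For 6 CAGE libraries the deposited table holds whole-number tag counts by position and strand, without scaling by the authors. FastQC, BWA and bedtools are named in the submitters' processing notes, without roles. The genome build, trimming and the placement of tags that match several places are not given in the sources used here. Placement could change levels on short contigs and was not tested. Positions were counted from 1. Tags of every position within a cluster's span were summed. The strains were compared in edgeR 4.0.16 under R 4.3.3 (quasi-likelihood F test, TMM factors on library totals, filterByExpr, Benjamini-Hochberg adjustment over all tested clusters, calls under 0.05). Standard errors of fold changes (log2) came from the estimate and the F value. Classes of sequences were compared by exact sign-flip permutation tests over libraries, shares by exact permutation tests. Effective sizes were 14.5 to 19.7 M tags (library total times TMM factor).

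Named clusters were the 10 BACL clusters with most tags and the called ones, and the 5 contigs with most tags, except where the text says otherwise. Members and rules were chosen with earlier results of these data known. The scripts were tested on simulated data. With 200 of 21803 clusters changed, the strain comparison recovered 0 at a log2 change of 1, 79% at 2 and 93.5% at 3. Its false calls there were 0, 10 and 16. A cluster that did not pass is therefore not shown to be unchanged. The data gave 1768 calls, more than the 200 clusters changed in the simulation, so the adjustment for many tests was not alike. These recoveries do not give the power of the comparison here, which called BACL clusters at log2 fold changes of 0.88 and -0.86. Alternatives covered scaling, filters, thresholds, cluster definitions, windows, the replicate block, DESeq2 1.42.0 and leaving out each library. The gene table at hand is of another assembly with other sequence names and was not used, and no sequence is shown.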

Additional observations from a re-analysis of the deposited data

Results flagged for a closer look

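A cluster too weak for the comparisons above differed between the strains. On BACL01001201.1, plus strand, positions 439 to 466 held 19, 23 and 23 tags in ΔlaeA replicates 1, 2 and 3, against 7, 5 and 6 tags in control replicates 1, 2 and 3, and 0.798 CPM pooled. Its log2 fold change was 2.04 (SE 0.42; edgeR adjusted p = 0.0197 in a fit with clusters of any level, chosen after seeing the data). It was the 1 call among 29 BACL clusters under 1 CPM with enough tags to be tested, of which 5 had an unadjusted p under 0.05. These are 3.45% and 17.2%, against 5.01% called and 17.5% with an unadjusted p under 0.05 among all 7510 such clusters tested. Over the 6 libraries, no library stood apart by Dixon's criterion in the share of tags on BACL contigs or in the differences from DF clusters.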

How the results depend on the processing

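The 6 BACL calls, beside 1768 calls among all clusters, became 1 beside 655 at an adjusted p under 0.01, 2 beside 1056 with positions of at least 0.5 CPM, 2 beside 983 with the replicate block, and 1 to 4 beside 745 to 2254 when each library was left out in turn. Other alternatives gave 5 to 8, with 8 beside 2601 under DESeq2. Deviations of same-numbered libraries correlated at 0.44, -0.41 and -0.07 across clusters, and 1 of 6 libraries correlated best with its own number. These values did not show a pairing by number, and they cannot settle whether some same-numbered libraries share an origin. The level difference from DF clusters passed with the mean of log2(CPM + 1), at 0.98 (p = 0.03125), with positions of at least 0.5 CPM, at 0.50, and joined at up to 50 bp, at 0.60, both at the same exact p. It was -0.20 without the clusters at sequence ends, and 0.32 to 0.47 when each library was left out. The width difference was -3.17 bp with at least 30 tags, where 2 of 6 libraries went the other way. It was -4.8 to -3.8 bp when each library was left out. The opposite-strand difference was -0.56 points without the clusters at sequence ends, and -1.78 to -1.42 points when each library was left out. With 5 libraries the exact sign-flip test cannot go below p = 0.0625, so p-values without a library say nothing about stability, while the means above kept their direction. The lower share of BACL tags in ΔlaeA kept its sign in each recomputed value (-1.89 to -0.40 points when each library was left out). The replicate block leaves the difference of -1.09 points as it is and alters only its p. That p was 0.5 in an exact sign-flip test over 3 pairs, too few to pass the threshold. In 223 recomputed values of the 15 named clusters, 34 lost their call and none changed a call's direction. The 9 strongest clusters had no call to lose, so all 34 fell on called clusters. The call was kept in 15 of 15 values for BACL01000914.1, 10 of 15 for BACL01000888.1 and 9 of 14 for BACL01000893.1. It was kept in 7 of 14 for BACL01000933.1, 7 of 15 for BACL01001304.1 and 6 of 15 for BACL01001044.1. The cause was not tested.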
